A study of Mus musculus with 28 samples.

Results

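The 9 genes described here encode proteins that carry or regulate magnesium: 3 of the solute carrier family 41 (Slc41a1, Slc41a2, Slc41a3), 3 cyclin M proteins (Cnnm2, Cnnm3, Cnnm4), the channel kinases Trpm6 and Trpm7, and Magt1. They were taken by gene name around Slc41a3, which was selected because its transcript level was lower in hearts of mice with chronic kidney disease (CKD) colonised with Oxalobacter formigenes than in hearts of CKD mice given vehicle. All 9 were found among the 45513 genes of the count table, and all 9 were among the 24273 genes kept by the filter on low counts.

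Magnesium is the cofactor that binds ATP, and in heart muscle it modulates calcium channels, potassium channels and the ryanodine receptor. SLC41A1 exchanges magnesium for sodium at the plasma membrane and is regarded as a route of magnesium extrusion, SLC41A2 is a related carrier, and SLC41A3 has been linked to magnesium handling by mitochondria and by the distal convoluted tubule of the kidney. CNNM2 and CNNM4 promote basolateral magnesium extrusion in epithelia, TRPM6 and TRPM7 are divalent cation channels fused to a kinase, and MAGT1 is a subunit of the oligosaccharyltransferase complex that has been implicated in magnesium uptake. In cultured cells the intracellular magnesium level follows the circadian clock, in which CLOCK and BMAL1 (encoded by Arntl) activate the Per genes, Dbp and other genes with E-boxes.

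RNA-seq of total RNA was made from ventricular myocardium of adult male C57BL/6 mice, 1 mouse per library, 28 libraries in all. At 6 weeks of age the mice had either a two-stage 5/6 nephrectomy, which removes most of the kidney mass and causes CKD, or a sham operation. All of them, sham-vehicle mice included, ate a diet with 1% hydroxyproline, a precursor of oxalate, and 0.5% calcium. On day 7 each mouse was gavaged once with O. formigenes, a gut bacterium that degrades oxalate, or with 200 µl of culture medium as vehicle. The groups are sham-vehicle (10 mice), CKD-vehicle (6 mice), sham-Oxf (5 mice) and CKD-Oxf (7 mice), where Oxf marks the bacterium. Mice are named by the number in their labels. The design had 10 mice per group, and the mice listed here were analysed. The hour of tissue collection was not given in the sources used here.

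Library totals ran from 19.8 M to 65.4 M counts (median 38.1 M). Ventricular myocyte transcripts were abundant in every library, with Myh6, the alpha myosin heavy chain, at a median of 17860 CPM (counts relative to the TMM-scaled library total). Of the 4 kidney epithelial markers, Umod and Slc12a1 were at 0 in 14 and 13 libraries. Pvalb was at 0 in 3 libraries and reached 28.2 CPM. Slc12a3 was counted in every library, with a median of 1.37 and a highest level of 5.09 CPM. The summed level of the 4 kidney markers on a log2(CPM + 1) scale ran from 0.827 to 4.94. The highest sum was in CKD-vehicle mouse 913, which also had the highest sum of the skeletal muscle markers Myh4, Myh1, Acta1 and Mybpc1 (9.18). Over all libraries Myh4 reached 402 CPM. Whether the Pvalb counts came from kidney or from skeletal muscle was not tested. Because the tissue was sequenced in bulk, fewer cells of a type and less RNA per cell cannot be told apart. The sham-Oxf mouse 921 stood apart, with the lowest total and 15879 genes with a count. The share of counts in the 7SL RNA genes Rn7s1 and Rn7s2, an abundant non-coding RNA, ranged from 1.83% to 21% and was 20.6% in CKD-Oxf mouse 934. That share is set beside the results it moved with.

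The promoters of Slc41a3, Magt1 and Trpm7 are shown because they are the 3 of the 9 that hold the E-box letters CACGTG, the motif that CLOCK and BMAL1 bind. Slc41a3 was the only member called on the clock slope within groups that is described later. With sham-vehicle libraries alone it was not called (edgeR adjusted p 0.643). In sham-vehicle it ran opposite to Per3 (r -0.924) and Dbp (r -0.735), and with Arntl (r 0.757) and Clock (r 0.933). Its correlation there with the score of all the clock genes did not pass adjustment (adjusted permutation p 0.143). Magt1 and Trpm7 were not called on the clock slope described later. Whether any of these sites is bound or acts on the level was not tested. Each run is 300 bases from RefSeq on GRCm38.p6, 5′ to 3′ on the gene's strand, from 250 bases before to 50 bases after the RefSeq start, with CACGTG in capitals. Slc41a3 lies at chr6:90618996-90619295 (+ strand), Magt1 at chrX:106011753-106012052 (- strand) and Trpm7 at chr2:126876212-126876511 (- strand).
Slc41a3: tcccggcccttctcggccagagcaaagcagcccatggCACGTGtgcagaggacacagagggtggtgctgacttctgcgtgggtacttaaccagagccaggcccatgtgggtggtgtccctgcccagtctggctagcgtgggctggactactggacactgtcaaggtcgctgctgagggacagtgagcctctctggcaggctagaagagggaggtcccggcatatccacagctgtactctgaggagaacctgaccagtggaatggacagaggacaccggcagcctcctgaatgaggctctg
Magt1: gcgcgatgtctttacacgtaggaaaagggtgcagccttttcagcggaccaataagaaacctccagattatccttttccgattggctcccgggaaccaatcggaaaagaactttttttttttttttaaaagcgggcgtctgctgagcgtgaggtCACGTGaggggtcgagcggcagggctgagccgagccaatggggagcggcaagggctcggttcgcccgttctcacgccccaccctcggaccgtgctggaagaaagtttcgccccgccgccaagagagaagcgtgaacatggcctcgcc
Trpm7: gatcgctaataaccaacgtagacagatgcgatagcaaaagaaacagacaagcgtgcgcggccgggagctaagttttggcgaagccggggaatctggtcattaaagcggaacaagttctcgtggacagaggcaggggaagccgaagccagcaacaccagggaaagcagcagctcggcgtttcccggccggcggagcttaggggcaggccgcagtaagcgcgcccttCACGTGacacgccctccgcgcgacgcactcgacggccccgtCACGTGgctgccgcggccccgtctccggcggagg
The match began at -213 from the RefSeq start in Slc41a3, at -97 in Magt1, and at -25 and 17 in Trpm7. CACGTG reads the same on both strands, and 7.15% of 32851 RefSeq promoter windows of the same length held it. It was in the windows of 4 of the 13 clock genes that matched the table (Bhlhe41, Ciart, Per1 and Tef). Those 13 genes had 18 windows, so this count is by gene and the background is by window. The D-box TTANGTAA, bound by DBP, TEF and HLF, was searched on both strands and was in 0 of the 9 windows (2.32% of all windows). AGGTCA, the core of the site that REV-ERB and ROR proteins bind, was in those of Cnnm3 and Magt1 (16.3% of all windows), and in Magt1 it overlapped the E-box. GENCODE lists 2 starts for Slc41a3, at 90604725 and 90619147 on chromosome 6. The RefSeq start that sets the window lies downstream of both, and the gene's count is not divided by start.

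Per length, the order of the medians over the 28 libraries was Trpm7, Slc41a1, Slc41a3, Magt1, Cnnm3, Cnnm2, Cnnm4, Slc41a2 and Trpm6. On the scale of CPM per kilobase of merged exons, Trpm7 had a median of 12.2 (9.04 to 17.6) and Slc41a1 one of 7.94 (6.04 to 11.3). Slc41a3 had a median of 5.42 (3.13 to 14.7), Magt1 3.04 (1.68 to 5.82), Cnnm3 2.58 (1.24 to 3.28) and Cnnm2 2.15 (1.08 to 3.18). Cnnm4 had a median of 1.05 (0.605 to 1.59), Slc41a2 0.677 (0 to 1.10) and Trpm6 0.191 (0.101 to 0.426). Each gene's range over the libraries overlapped that of the next gene in this order. Trpm6, which is best known from kidney and colon, had 28 to 136 counts per library.

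Few of the 9 genes passed edgeR's quasi-likelihood test at an adjusted p under 0.05. In sham-Oxf against sham-vehicle 0 of 9 passed, beside 0% of the 24273 genes tested, and 2 of 9 had an unadjusted p under 0.05 (3054 genes overall). DESeq2 called 1 member, Slc41a3, among 131 genes there, and limma voom called 0 members among 32 genes. In CKD-vehicle against sham-vehicle 0 of 9 passed, beside 0.00824% of all genes (2 genes), and 1 of 9 had an unadjusted p under 0.05 (1083 genes, 4.46%). DESeq2 and limma voom each called 1 member there, Slc41a3, among 29 and 55 genes. CKD-vehicle is the high arm of the comparison that selected Slc41a3, so these calls are a description only. In CKD-Oxf against sham-Oxf 0 of 9 passed, beside 0% of all genes, with 2 of 9 members and 1997 genes at an unadjusted p under 0.05 (0 members and 100 genes by DESeq2, 0 and 0 by limma voom). The interaction of surgery and bacterium gave 0 of 9 members, beside 0% of all genes, with 0 members and 862 genes at an unadjusted p under 0.05 and 0 genes by either other tool.

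With the bacterium averaged over both kinds of surgery, 2 of 9 members passed, Slc41a3 and Magt1, both lower with the bacterium, beside 2.81% of all genes (681 genes, 374 of them lower). Slc41a3 was selected on libraries in that average. The count over all genes ran from 109 without CKD-vehicle mouse 914 to 3362 without CKD-Oxf mouse 934. CKD-Oxf against CKD-vehicle called 1 of 9, Slc41a3, beside 0.033% of all genes (8 genes). That comparison chose the gene, and nothing is read from the count, which was 0 without mouse 913 or 914 and 927 without mouse 934. The median log2 difference over the 9 members was 0.11 in sham-Oxf against sham-vehicle and 0.16 in CKD-Oxf against CKD-vehicle, beside -0.04 and 0.03 over all genes tested. The comparisons share libraries: sham-vehicle and CKD-vehicle each serve as the reference of 1 bacterium comparison and enter the surgery comparison under vehicle.

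Slc41a3 (ENSMUSG00000030089, chromosome 6, 90604725 to 90646412, + strand) was highest in CKD-vehicle hearts and lowest in sham-Oxf hearts. In sham-vehicle its lowest, median and highest levels were 12.2, 20.1 and 24.1 CPM. In CKD-vehicle they were 22.4, 30.9 and 42.8 CPM, and in CKD-Oxf 12.9, 14.03 and 20.96 CPM. The 5 sham-Oxf mice had 9.12, 9.47, 11.02, 11.8 and 13.7 CPM. No CKD-Oxf mouse reached the lowest CKD-vehicle mouse, and 6 of the 7 CKD-Oxf mice lay close together, with mouse 931 at 20.96 CPM above them. The means were 18.9 ± 4.58 CPM (SD, n = 10) for sham-vehicle, 30.8 ± 7.25 (n = 6) for CKD-vehicle, 11.03 ± 1.86 (n = 5) for sham-Oxf and 14.7 ± 2.85 (n = 7) for CKD-Oxf. As mean log2 CPM these were 4.2 ± 0.38, 4.92 ± 0.33, 3.45 ± 0.24 and 3.86 ± 0.24.

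The comparison that selected Slc41a3 is given as a description: its mean CPM in CKD-Oxf was 0.476 of that in CKD-vehicle, with a log2 difference of -1.05 ± 0.17 (SE), and 70 of the 24273 genes (0.288%) were lower there without overlap of the groups.

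In sham hearts, whose group means hold none of those libraries, Slc41a3 was lower with the bacterium by a log2 difference of -0.76 ± 0.17. This did not pass (edgeR adjusted p 0.122, unadjusted p 0.000127, rank 25 of 24273). The fit used all 28 libraries for the filter and for 1 shared estimate of the spread, so the p-value is not independent of the selecting libraries. All 5 sham-Oxf mice were below the sham-vehicle median and 4 of them below its lowest mouse. DESeq2 called this difference (-0.77 ± 0.17, adjusted p 0.00478), limma voom did not (-0.73 ± 0.17, adjusted p 0.0671), and across all alternatives its adjusted p ran from 0.00478 to 0.661. Without mice 921 and 934 it was -0.85 ± 0.19 (edgeR adjusted p 0.157). The difference of the bacterium's effect between CKD and sham hearts was -0.29 ± 0.23 (edgeR p 0.221 before adjustment). Averaged over surgery, a description since it contains the selecting libraries, the log2 difference was -0.90 ± 0.12.

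With nephrectomy under vehicle, Slc41a3 was higher by 0.69 ± 0.15 on the log2 scale, 1.63 times the sham-vehicle mean, which did not pass edgeR's test (adjusted p 0.419, unadjusted p 8.61e-05, rank 4 of 24273). All 6 CKD-vehicle mice were above the sham-vehicle median and 5 above its highest mouse. DESeq2 gave an adjusted p of 0.0198 and limma voom one of 0.00887, and over all alternatives it ran from 0.00887 to 1. With nephrectomy in colonised mice, the difference was 0.40 ± 0.18 (edgeR adjusted p 0.547), with all 7 CKD-Oxf mice above the sham-Oxf median. Both comparisons share an arm with the one that selected the gene, CKD-vehicle being its high arm and CKD-Oxf its low arm. Their differences, p-values, ranks and calls for Slc41a3 are therefore not independent of the selection and are given as a description.

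**Figure D1:**
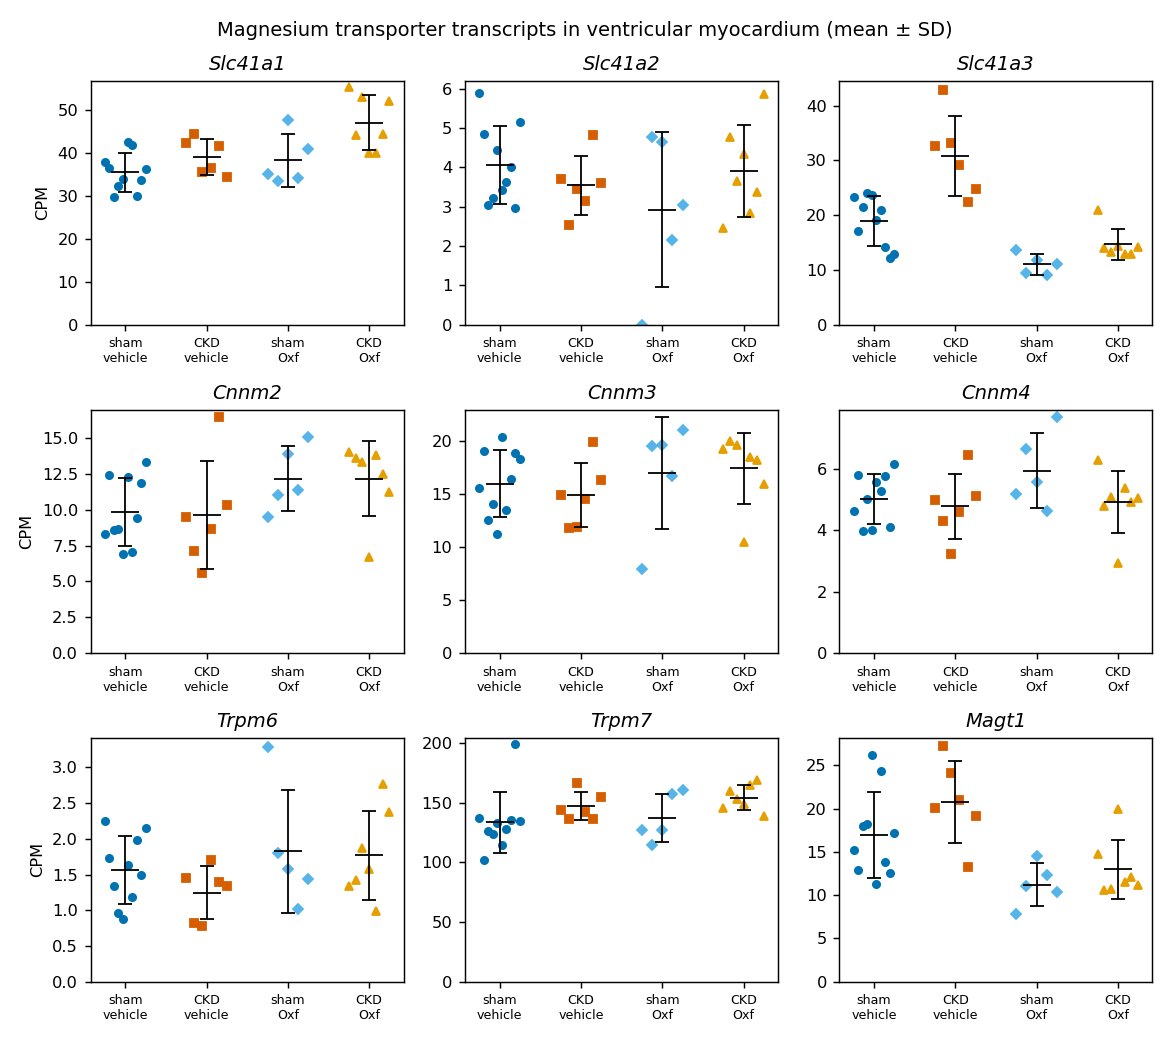
CPM of the 9 genes in each mouse (points) with the group mean and SD (black bars), by group on the x axis and on a separate linear y axis from 0 for each gene. Slc41a3 runs from 9.12 CPM in a sham-Oxf mouse to 42.8 CPM in a CKD-vehicle mouse, and Magt1 shows the same order of group means over a smaller range, from 7.87 to 27.2 CPM.

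Neither of the other carriers of the family passed edgeR's test in a group comparison. Slc41a1 (ENSMUSG00000013275, chromosome 1, 131827493 to 131848865), the sodium-dependent magnesium exchanger, had 29.7, 35.1 and 42.6 CPM (lowest, median, highest) in sham-vehicle and 34.3, 39.0 and 44.4 in CKD-vehicle. It had 33.5, 35.0 and 47.8 CPM in sham-Oxf and 40.0, 44.5 and 55.5 in CKD-Oxf. All groups overlapped, and the CKD-Oxf mice were the highest as a group, all 7 above the CKD-vehicle median. The log2 difference of CKD-Oxf from CKD-vehicle was 0.29 ± 0.11 (edgeR adjusted p 0.29, unadjusted p 0.0137), and that from sham-Oxf was 0.29 ± 0.12 (edgeR adjusted p 0.459, unadjusted p 0.0193). With limma voom the first had an adjusted p of 0.0297. Averaged over surgery its log2 difference with the bacterium was 0.21 ± 0.08 (edgeR adjusted p 0.108), and it passed with limma voom (0.25 ± 0.07, adjusted p 0.0115) and in edgeR without mice 921 and 934 (0.24 ± 0.08, adjusted p 0.0358).

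Slc41a2 (ENSMUSG00000034591, chromosome 10, 83230848 to 83337882) had group means of 4.06 ± 0.992 CPM for sham-vehicle, 3.54 ± 0.753 for CKD-vehicle, 2.92 ± 1.97 for sham-Oxf and 3.91 ± 1.18 for CKD-Oxf. No read of it was counted in mouse 921, where 3 counts would be 0.139 CPM. The other 4 sham-Oxf mice had 2.16 to 4.77 CPM, and the range of sham-vehicle was 2.97 to 5.90 CPM. Its 4 pairwise log2 differences lay between -0.44 and 0.40, with standard errors of 0.37 to 0.43, the widest of the 9 genes. A processed pseudogene on the opposite strand overlaps it, so part of its count is uncertain.

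None of the 3 cyclin M genes passed edgeR's test between groups with all libraries in the fit. Cnnm2 (ENSMUSG00000064105, chromosome 19, 46761596 to 46880192), needed for renal magnesium reabsorption, was at 9.87 ± 2.37 CPM for sham-vehicle and 9.61 ± 3.75 for CKD-vehicle, against 12.2 ± 2.25 for sham-Oxf and 12.2 ± 2.59 for CKD-Oxf. All 5 sham-Oxf mice were above the sham-vehicle median, and 6 of 7 CKD-Oxf mice were above the CKD-vehicle median, mouse 934 being the exception at 6.70 CPM. The log2 difference of CKD-Oxf from CKD-vehicle was 0.36 ± 0.21, which did not pass edgeR's test, and it passed with limma voom (0.49 ± 0.16, adjusted p 0.0393). The average difference with the bacterium was 0.34 ± 0.15 on the log2 scale (edgeR adjusted p 0.165). It passed with limma voom (0.45 ± 0.12, adjusted p 0.0075), and in edgeR without CKD-vehicle mouse 919, the highest of its group (0.45 ± 0.13, adjusted p 0.0384), and without mice 921 and 934 together (0.43 ± 0.14, adjusted p 0.0368).

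Cnnm3 (ENSMUSG00000001138, chromosome 1, 36511867 to 36528237) and Cnnm4 (ENSMUSG00000037408, chromosome 1, 36471620 to 36508764) lie next to each other. Cnnm3 was at 15.99 ± 3.12 CPM for sham-vehicle, 14.9 ± 3.01 for CKD-vehicle, 17.0 ± 5.28 for sham-Oxf and 17.4 ± 3.34 for CKD-Oxf. The lowest Cnnm3 levels of the 2 colonised groups were in mouse 921 (7.96 CPM) and mouse 934 (10.5 CPM), and the other colonised mice had 15.9 to 21.1 CPM. Cnnm4, whose protein acts in intestine and tooth enamel, was at 5.04 ± 0.815, 4.78 ± 1.06, 5.95 ± 1.23 and 4.92 ± 1.01 CPM in the same order. Neither had an edgeR adjusted p under 0.05 in any group comparison, and Cnnm3 averaged over surgery passed with limma voom (0.30 ± 0.09, adjusted p 0.0171) and in edgeR without mice 921 and 934 (0.31 ± 0.10, adjusted p 0.0382). An antisense transcript overlaps Cnnm3, and a tentative transcript model and a miRNA gene on the same strand overlap Cnnm4, so part of their counts is uncertain.

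The channel kinases differed in level, and neither passed edgeR's test between groups with all libraries in the fit. Trpm7 (ENSMUSG00000027365, chromosome 2, 126791565 to 126876230), which is expressed in most tissues, was at 133.5 ± 25.5 CPM for sham-vehicle, 146.9 ± 11.8 for CKD-vehicle, 137.3 ± 20.3 for sham-Oxf and 154.2 ± 10.8 for CKD-Oxf. All 7 CKD-Oxf mice were above the sham-Oxf median, with a log2 difference of 0.16 ± 0.12 (edgeR adjusted p 0.827). Trpm6 (ENSMUSG00000024727, chromosome 19, 18749983 to 18892511) was at 1.56 ± 0.477, 1.25 ± 0.369, 1.82 ± 0.866 and 1.77 ± 0.623 CPM in the same order. Its widest log2 difference, CKD-Oxf against CKD-vehicle, was 0.52 ± 0.30 (edgeR adjusted p 0.445). On the opposite strand a miscellaneous RNA gene overlaps Trpm6 and a processed pseudogene overlaps Trpm7, and part of both counts is uncertain.

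Magt1 (ENSMUSG00000031232, chromosome X, 105968084 to 106011906) was the only other member that passed edgeR's test in a group comparison with all libraries in the fit. Its lowest, median and highest levels were 11.3, 16.2 and 26.2 CPM for sham-vehicle, 13.3, 20.5 and 27.2 for CKD-vehicle and 10.6, 11.5 and 19.9 for CKD-Oxf. The 5 sham-Oxf mice had 7.87, 10.4, 11.01, 12.3 and 14.6 CPM. All 5 sham-Oxf mice were below the sham-vehicle median, and all 7 CKD-Oxf mice were below the CKD-vehicle median, with overlap in both. Averaged over surgery, Magt1 fell by 0.61 ± 0.13 on the log2 scale with the bacterium (edgeR adjusted p 0.0217), and it passed in all 28 fits that left out 1 library (adjusted p 0.00261 to 0.049). Without mice 921 and 934 together it was -0.63 ± 0.13 (edgeR adjusted p 0.00451). Within sham the log2 difference was -0.57 ± 0.19 (edgeR adjusted p 0.233) and within CKD -0.66 ± 0.19 (edgeR adjusted p 0.197), and the difference between them was -0.09 ± 0.27 (edgeR p 0.743 before adjustment). Without mouse 934, the highest CKD-Oxf mouse, the CKD difference was -0.79 ± 0.18 (edgeR adjusted p 0.0358).

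The 7SL share moved with Magt1. Its mean was 9.78% for sham-vehicle, 13.6% for CKD-vehicle, 4.14% for sham-Oxf and 8.81% for CKD-Oxf. The Magt1 means stood in that order too, at 17.0 ± 4.97, 20.8 ± 4.72, 11.2 ± 2.47 and 13.0 ± 3.38 CPM, as did those of Slc41a3. Within CKD-vehicle the log2 share and Magt1 had r = 0.946 (rho 0.886, exact permutation p 0.00556 and 0.0333, n = 6), within sham-vehicle r = 0.678 (rho 0.624, permutation p 0.0314 and 0.0605, n = 10) and within CKD-Oxf r = 0.49 (rho 0.143, exact permutation p 0.259 and 0.783, n = 7). None of these passed Benjamini-Hochberg adjustment over the 18 relations of that family (adjusted p 0.05, 0.113 and 0.388), and without the 2 mice of most distant share they were 0.852, 0.42 and 0.703. With the log2 7SL share as a covariate, the average Magt1 difference was -0.41 ± 0.14 and did not pass (edgeR adjusted p 0.148), and with the clock score described later it was -0.46 ± 0.23 (edgeR adjusted p 0.673).

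Several marker lists, fibroblast and atrial among them, had lower group means with the bacterium in both surgeries. The ventricular myocyte, endothelial, macrophage and skeletal muscle lists were lower in both as well. The adipose, liver, kidney and blood lists were not lower in both. All 4 fibroblast markers (Pdgfra, Dcn, Col1a1 and Lum) were counted in every library, and their summed level on the log2(CPM + 1) scale had a mean of 8.64 for sham-vehicle (7.75 to 9.28) and 8.64 for CKD-vehicle (8.20 to 9.29). It was 8.15 for sham-Oxf (7.71 to 8.81) and 8.12 for CKD-Oxf (7.55 to 8.93), lower in both colonised groups with overlap. All 4 atrial markers (Myl7, Myl4, Sln and Nppa) were counted in every library too, with mean summed levels of 9.89 for sham-vehicle (7.38 to 11.20), 10.57 for CKD-vehicle (9.86 to 11.35), 9.03 for sham-Oxf (5.96 to 10.74) and 9.70 for CKD-Oxf (6.65 to 10.48), the same order of groups as for Magt1 and Slc41a3 and again with overlap. The part of these marker lists in the Magt1 and Slc41a3 differences was not tested.

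**Figure D2:**
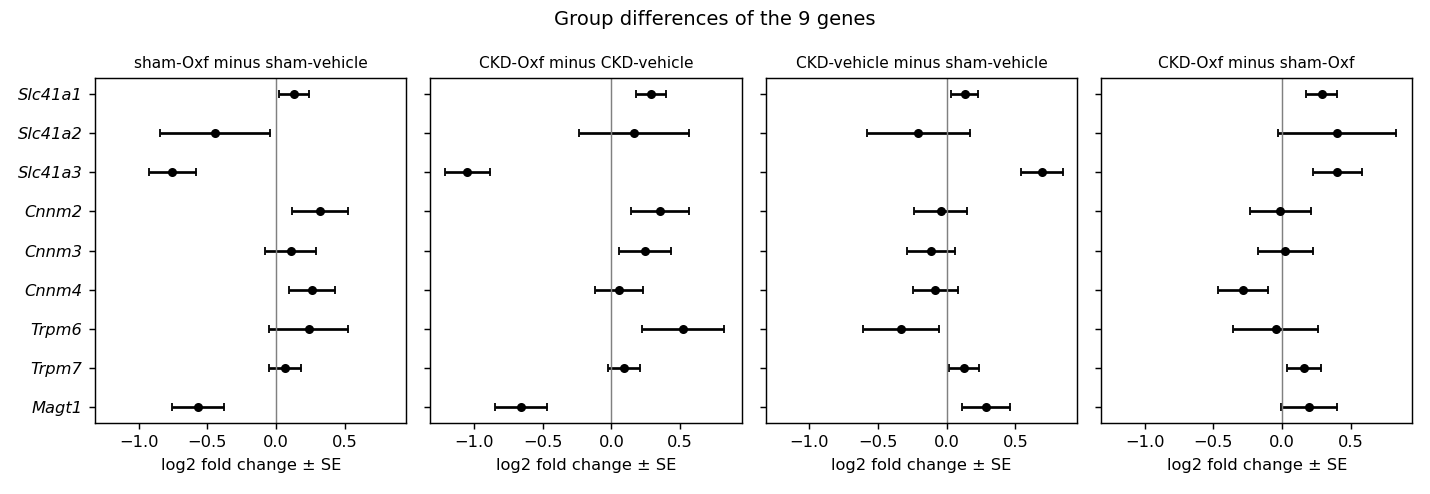
Log2 fold changes of the 9 genes with their standard errors in the 4 pairwise comparisons, from edgeR; the vertical grey line marks no difference. Slc41a3 and Magt1 lie to the left in both bacterium comparisons, and the Slc41a3 point of CKD-Oxf minus CKD-vehicle (-1.05) is the difference that selected the gene.

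Other genes of magnesium transport were examined from a list of 24 (other members of the CNNM and NIPA families, the mitochondrial channel Mrs2, the Ptp4a phosphatases that bind CNNM proteins, ATP-magnesium carriers and renal claudins). Of these, 19 were tested, and Cnnm1, Nipal1, Nipal4, Slc25a41 and Cldn16 were too low. None of the 19 passed edgeR's test in any of the 6 group comparisons or on the clock slope. At an unadjusted p under 0.05 there were 4 in sham-Oxf against sham-vehicle (12.6% of all genes), 1 in CKD-Oxf against CKD-vehicle (13.1%), 1 in CKD-vehicle against sham-vehicle (4.46%) and 0 in CKD-Oxf against sham-Oxf (8.23%). There were 6 for the average with the bacterium (23% of all genes) and 0 for the interaction (3.55%). The nearest to the threshold was Mmgt1, a proposed membrane magnesium transporter, at -0.56 ± 0.19 averaged over surgery (edgeR adjusted p 0.0844).

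Slc41a3 followed the clock genes within groups, and none of the other 8 members was called in the same fit. A clock score was formed for each mouse as the mean of 10 genes (Dbp, Tef, Hlf, Nr1d1, Nr1d2, Per1, Per2, Per3, Ciart and Bhlhe41) minus the mean of 4 genes that peak at the opposite phase (Arntl, Npas2, Clock and Nfil3), each on the log2 CPM scale relative to sham-vehicle. Its means were 0 ± 1.16 for sham-vehicle, -1.58 ± 0.96 for CKD-vehicle, 1.83 ± 0.62 for sham-Oxf and 1.20 ± 0.64 for CKD-Oxf: CKD-vehicle had the lowest score and the highest Slc41a3, and sham-Oxf the highest score and the lowest Slc41a3. To leave those group differences out, the slope of each gene on the score was fitted beside the 4 group means. Slc41a3 fell by 0.29 ± 0.04 log2 units per unit of score (edgeR adjusted p 0.000414), 1 of 9 members called beside 0.144% of all genes (35 genes, 28 with a positive slope).

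By p-value Slc41a3 ranked 9 of 24273 on that slope, and 3 among the 24259 genes outside the score, of which 23 passed (0.0948%) and 4 of those had a negative slope. In all 28 fits without 1 library it was called, with slopes of -0.31 to -0.27, and without mice 921 and 934 its slope was -0.29 ± 0.04 (edgeR adjusted p 0.000874). DESeq2 and limma voom also called it (-0.28 ± 0.04 and -0.29 ± 0.04, adjusted p 1.85e-10 and 3.65e-05), as did each of the 2 lists used alone. With the 10 sham-vehicle libraries alone the slope was -0.28 ± 0.06 and was not called (edgeR adjusted p 0.643, unadjusted p 0.001). Of the other members, Trpm7 had 0.11 ± 0.04 (edgeR adjusted p 0.588), Cnnm2 0.15 ± 0.08, Cnnm3 0.12 ± 0.07 and Magt1 -0.06 ± 0.08 (edgeR adjusted p 0.791).

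**Figure D3:**
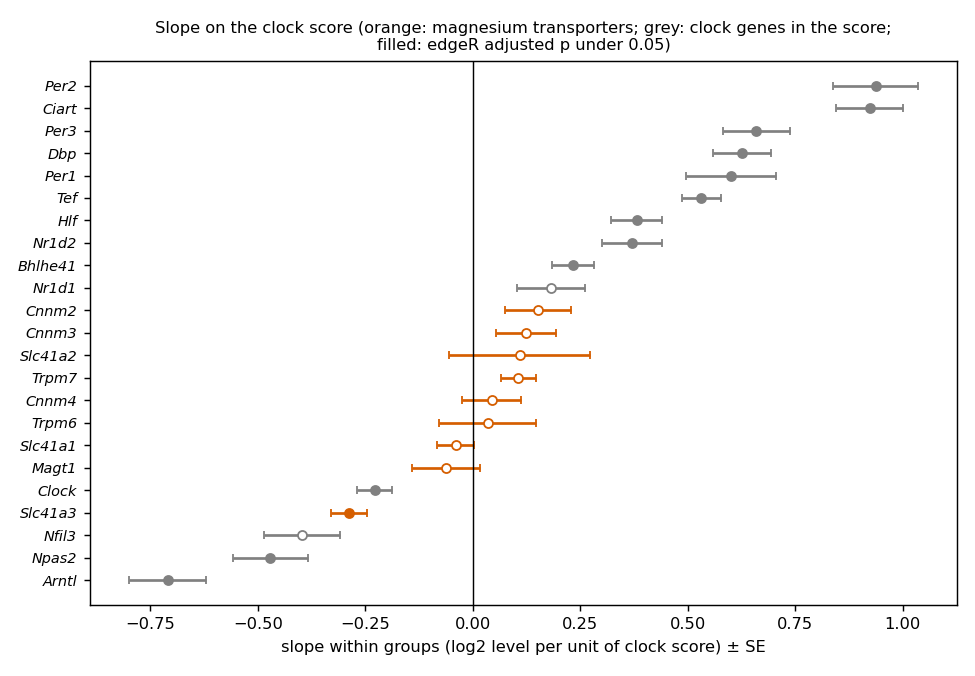
Slope of each gene on the clock score within groups (x axis, log2 level per unit of score, with SE) for the 9 magnesium genes (orange) and the 14 clock genes in the score (grey); filled points passed edgeR's test. Slc41a3, at -0.29, lies beside Clock (-0.23) among the genes of the Arntl list, and the other 8 magnesium genes lie between -0.06 and 0.15.

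Mouse by mouse, Slc41a3 ran opposite to the score in each group that was large enough to be examined. In sham-vehicle Pearson's r was -0.807 (permutation p 0.0053) and Spearman's rho -0.673 (permutation p 0.0382, n = 10), and leaving out the 2 mice farthest from the median score gave r = -0.534. In CKD-vehicle r was -0.916 and rho -0.829 (exact permutation p 0.0111 and 0.0583, n = 6), and r = -0.961 remained after leaving out the 2 farthest. In CKD-Oxf r was -0.934 and rho -0.321 (exact permutation p 0.0444 and 0.498, n = 7), and without the 2 farthest r was 0.47, so this relation rested on those 2 mice, 931 and 936. Mouse 931 had both the lowest score (-0.16) and the highest Slc41a3 of its group. Of the other members, Trpm7 in sham-vehicle (r 0.672, rho 0.503, permutation p 0.0236 and 0.142) and Magt1 in CKD-vehicle (r -0.783, rho -0.657, exact permutation p 0.0472 and 0.175) also had an unadjusted p under 0.05 for r. None of the 27 relations of the 9 members in 3 groups passed Benjamini-Hochberg adjustment. The 3 of Slc41a3 had adjusted p 0.143, 0.15 and 0.25, Trpm7 in sham-vehicle 0.212 and Magt1 in CKD-vehicle 0.25. The sham-Oxf group, with 5 mice, was too small for a correlation.

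**Figure D4:**
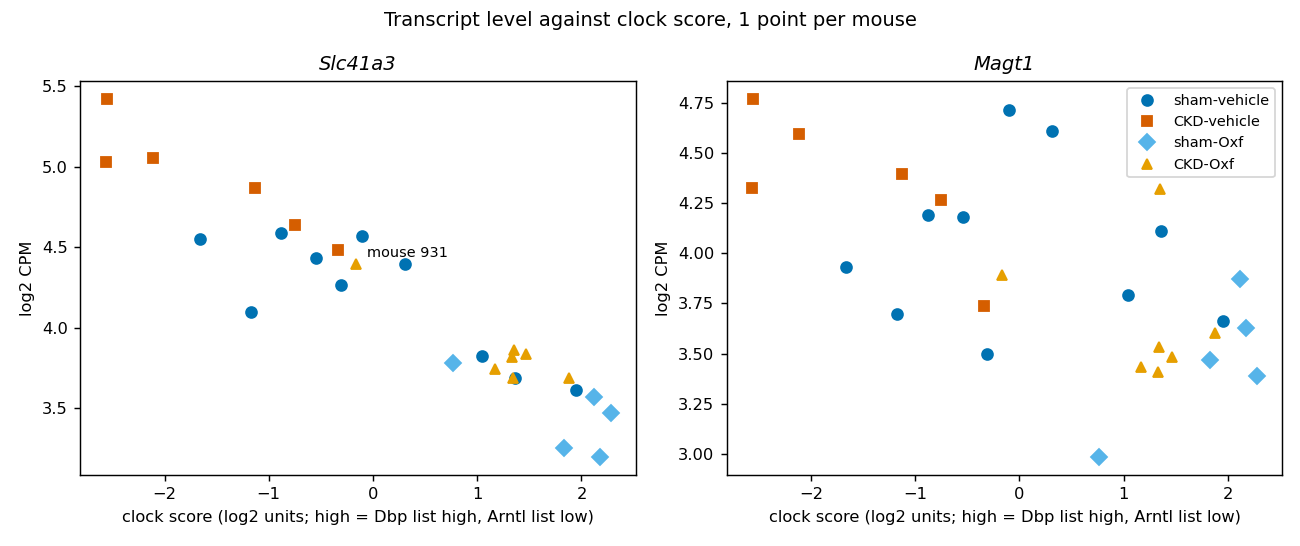
Log2 CPM of Slc41a3 (left) and Magt1 (right) against the clock score, 1 point per mouse, coloured by group. CKD-Oxf mouse 931, at a score of -0.16, stands above the 6 other CKD-Oxf mice in Slc41a3. Magt1 has r -0.061 with the score within sham-vehicle, -0.783 within CKD-vehicle and -0.273 within CKD-Oxf.

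By Pearson's r, single clock genes gave the same signs in sham-vehicle and CKD-vehicle. In sham-vehicle Slc41a3 correlated negatively with all 10 genes of the first list (r -0.924 to -0.365) and positively with all 4 of the second (0.343 to 0.933), and in CKD-vehicle the signs were the same (-0.952 to -0.398 and 0.247 to 0.865). Of the 42 such relations, 10 for sham-vehicle, 6 for CKD-vehicle and 2 for CKD-Oxf had an adjusted permutation p under 0.05 for Pearson's r. By Spearman's rho only Per3 in sham-vehicle passed (adjusted permutation p 0.0239), and the next lowest adjusted permutation p was 0.0536. The highest in sham-vehicle was with Clock itself (r 0.933, rho 0.842, permutation p 0.0005, adjusted p 0.0105, r 0.89 without the 2 farthest mice), and the lowest was with Per3 (r -0.924, rho -0.915, permutation p 0.00046, adjusted p 0.0105, r -0.813 without them). Dbp gave r -0.735, Per1 -0.682, Nr1d1 -0.802, Arntl 0.757 and Npas2 0.343 in the same mice. In CKD-Oxf 9 of the 10 were negative by r, the exception being Nr1d1 (r 0.515), and all 4 of the second list were positive. These signs were less stable. By rho, Hlf (0.357) and Bhlhe41 (0.179) were positive as well, and Nfil3 was negative (-0.036). Without the 2 mice farthest from each clock gene's median, r was 0.832 for Per1, 0.432 for Hlf and -0.167 for Ciart. The other signs in this group stayed as they were in both. These points share libraries and the clock genes move together, so the relations are not independent.

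When the clock score stood beside the group means, the differences of Slc41a3 between groups were smaller. Sham-Oxf against sham-vehicle was -0.21 ± 0.13 in place of -0.76, CKD-Oxf against CKD-vehicle -0.24 ± 0.15 in place of -1.05, CKD-vehicle against sham-vehicle 0.25 ± 0.12 in place of 0.69 and CKD-Oxf against sham-Oxf 0.21 ± 0.11 in place of 0.40. None passed edgeR's test (adjusted p 0.655 to 1). The score differs between the groups, so its part and that of the treatment in the level of Slc41a3 cannot be told apart in the group comparisons.

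The score also moved with the number on the mouse's label. Within sham-vehicle the score had r = 0.953 and rho = 0.964 with mouse number (permutation p 3e-05 and 2e-05, adjusted p 0.00054 for r). Within CKD-vehicle the score had r = 0.95 and rho = 0.943 (exact permutation p 0.0153 and 0.0167, adjusted p 0.0799 for r). Within CKD-Oxf the score had r = 0.608 and rho = 0.893 (exact permutation p 0.173 and 0.0123, adjusted p 0.347 for r). Slc41a3 had r = -0.738 and rho = -0.673 with mouse number within sham-vehicle (permutation p 0.0177 and 0.0385, adjusted p 0.0799 for r, r -0.605 without the 2 farthest numbers). Within CKD-vehicle Slc41a3 had r = -0.828 and rho = -0.771 with mouse number (exact permutation p 0.0444 and 0.103, n = 6, adjusted p 0.133 for r). Within CKD-Oxf these were r = -0.469 and rho = -0.429 (exact permutation p 0.246 and 0.354, n = 7, adjusted p 0.388 for r). Each group held its own run of mouse numbers, with no interleaving between groups. Number and treatment therefore cannot be told apart in any of the group comparisons. Within sham-vehicle and CKD-vehicle the score and the number moved closely together. The relation of Slc41a3 to the score within groups, its clock slope included, therefore cannot be told apart from a relation to number. Whether the number follows the order or hour of collection was not given in the sources used here, and the part of the number was not tested.

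Clock was also the gene whose pattern was most like that of Slc41a3 among the 13896 genes whose mean log2 CPM was 1 or more, by Pearson's r over the 28 libraries after each group's mean was removed (r 0.843). It was followed by Ppp1r3c (0.808), Ank1 (0.807) and Rcan1 (0.80). The most opposite were Ciart (-0.857), Per3 (-0.848), Ankrd12 (-0.832) and Mthfd1l (-0.83). The middle 90% of genes lay between -0.513 and 0.606. Of the members, Magt1 had 0.459 with Slc41a3, Slc41a1 0.299, Cnnm3 -0.518 and Cnnm2 -0.516. These values are a description over libraries that share depth and composition.

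The slope on the log2 7SL share within groups, a fit added after the data were seen, called 9151 of 24273 genes (37.7%) and 4 of the 9 members, a share close to the background. Cnnm2 (-0.24 ± 0.06 per doubling, edgeR adjusted p 0.00166), Cnnm3 (-0.23 ± 0.05, edgeR adjusted p 0.00122) and Cnnm4 (-0.17 ± 0.05, edgeR adjusted p 0.0137) were lower where the share was higher, and Magt1 was higher (0.17 ± 0.06, edgeR adjusted p 0.0245). Slc41a3 had 0.11 ± 0.05 and was not called (edgeR adjusted p 0.093), and with the 7SL share as a covariate its clock slope was -0.27 ± 0.04 (edgeR adjusted p 0.000629). Leaving out CKD-vehicle mouse 919 left 2 members called on the 7SL slope, Cnnm2 and Cnnm3. The Magt1 call on that slope was also lost without mouse 903, 905, 906, 914, 916, 918, 931 or 934, each left out alone.

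**Figure D5:**
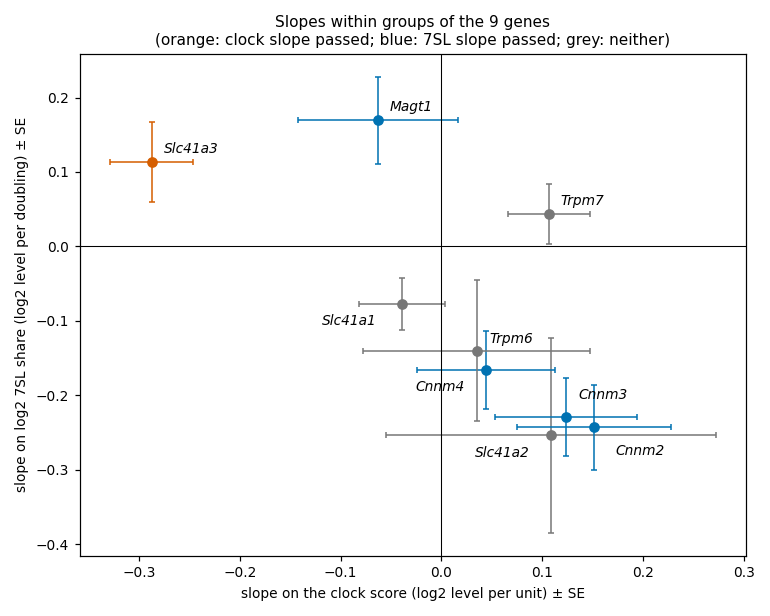
Slope of each of the 9 genes on the clock score (x axis) and on the log2 7SL share (y axis), both within groups with SE, from 2 separate edgeR fits. Slc41a3 (-0.29, 0.11) is the 1 gene called on the clock slope, and Magt1, Cnnm2, Cnnm3 and Cnnm4 are the 4 called on the 7SL slope.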

How the data were processed

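The authors deposited 1 table of raw read counts per gene for 28 libraries of mouse ventricular myocardium. Per the submitters' processing notes, FastQC 0.11.7, MultiQC 1.9, STAR 2.6.1d, Subread, featureCounts 1.6.3 and the mm10 genome were used. The annotation release and the use of strand are not given in the sources used here, nor is the step that each tool served. Every value column was matched to a mouse by its label, and no column was left unmapped (0).

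From these counts edgeR 4.0.16 (R 4.3.3) was run with TMM scaling, filterByExpr (minimum count 10), 4 group means and the robust quasi-likelihood test. Benjamini-Hochberg adjustment covered all 24273 genes kept, with a threshold of 0.05. Fold changes are log2 with standard errors from the F statistic, and levels are CPM with TMM factors (prior count 2 on the log2 scale). Depth was 19.8 M to 65.4 M counts per library. Correlations used exact permutation in groups of 6 and 7 mice and 100000 draws in sham-vehicle. All p-values here measure the spread between mice.

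The 9 members, the clock lists and the other magnesium genes were chosen with earlier results of these data known. Named were all 9 members, and Dbp, Per1, Nr1d1, Arntl and Npas2 with the highest and lowest clock correlates. The 8 most and 8 least like genes whose mean log2 CPM was 1 or more were listed, and those of highest rank on each side were named. The 7SL slope, mouse number, chromosomal neighbours and the fit without mice 921 and 934 were chosen after seeing the data. Alternatives were DESeq2 1.42.0, voom with sample weights in limma 3.58.1, other scalings and filters, covariates, and leaving out each library. Positions are from GENCODE M21 on GRCm38, which held 45465 of the 45513 gene IDs. Scripts were tested on simulated data.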

Additional observations from a re-analysis of the deposited data

Results flagged for a closer look

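In each group, the highest and the lowest mouse were compared with the others by the gap to the nearest mouse divided by the whole range of log2 CPM, and 7 of 36 combinations of gene and group had a mouse farther away than Dixon's 95% limit. Chance flags about 1 in 20 groups, which is 1.8 here. CKD-Oxf mouse 931 was the highest of its group for Slc41a3 (gap share 0.759), and it also had the lowest clock score of that group. Mouse 934 was the lowest of CKD-Oxf for Cnnm2 (0.696), Cnnm3 (0.649) and Cnnm4 (0.644), and it had the highest 7SL share of its group, 20.6%. Mouse 921 was the lowest of sham-Oxf for Slc41a2 (0.83), where no read was counted, and for Cnnm3 (0.761), and it had the fewest counts of all libraries. The sham-vehicle mouse 909 was the highest of its group for Trpm7 (0.558), at 199.3 CPM.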

How the results depend on the processing

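The differences called by edgeR with all libraries (Slc41a3 in CKD-Oxf against CKD-vehicle, Slc41a3 and Magt1 in the average with the bacterium, and the Slc41a3 clock slope) kept their sign under every alternative. For Slc41a3 in CKD-Oxf against CKD-vehicle and in the average, nothing is read from this, since both contain the libraries that selected it. Calls of single alternatives did not all do so: Cnnm3 averaged over surgery, called with limma voom and without mice 921 and 934, was -0.11 with the clock score and -0.05 with the 7SL share as covariate, and Cnnm2 in CKD-Oxf against CKD-vehicle, called with limma voom, was -0.03 with the clock score. The number of the 9 members called in sham-Oxf against sham-vehicle was 0, and 1 with DESeq2. In CKD-Oxf against CKD-vehicle it was 1, against 4 with limma voom (Cnnm2, Magt1, Slc41a1 and Slc41a3), 0 with the clock score as a covariate and 2 without mice 921 and 934. It was 0 to 2 when 1 library was left out, 0 without CKD-vehicle mouse 913 or 914 (Slc41a3 adjusted p 0.0727 and 0.0606 in edgeR) and 2 without CKD-Oxf mouse 934. In CKD-vehicle against sham-vehicle it was 0, and 1 with DESeq2 and 1 with limma voom (Slc41a3, which was selected with the same CKD-vehicle libraries). For the bacterium averaged over surgery it was 2, against 5 with limma voom, 0 with the clock score, 1 with the 7SL share, 5 without mice 921 and 934, and 2 to 3 with 1 library left out. On the clock slope it was 1, 0 in sham-vehicle libraries alone and 1 in every fit with 1 library left out. On the 7SL slope it was 4, against 6 with limma voom (also Slc41a2 and Trpm6), 5 without mice 921 and 934, and 2 to 5 with 1 library left out. The Slc41a3 correlation with clock score in sham-vehicle was -0.858 on CPM without TMM factors, which passed adjustment, and -0.904 to -0.714 with 1 mouse left out, passing without mouse 902. Over all genes, the average with the bacterium called 681, and 0 with the clock score, 132 with the 7SL share, 161 with no filter on low counts, 1422 with at least 10 counts in every library, 2133 with DESeq2, 5307 with limma voom, 4707 without mice 921 and 934, and 109 (without mouse 914) to 3362 (without mouse 934) with 1 library left out. CKD-Oxf against CKD-vehicle called 8, and 0 with the clock score, 190 with DESeq2, 3620 with limma voom, 2189 without mice 921 and 934, 0 without mouse 913 or 914 and 927 without mouse 934. Requiring at least 10 counts in every library removed Slc41a2, which had no count in mouse 921. No paired analysis was possible because the groups share no mouse numbers.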

Other observations

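Slc41a3 lies within 250 kb of 17 other annotated genes, of which 10 were tested. These neighbours were chosen after the data were seen. Klf15, a transcription factor of cardiac metabolism 129.5 kb from Slc41a3, was the only one of the 10 called on the clock slope, and its slope was of the opposite sign (0.29 ± 0.06, edgeR adjusted p 0.0417). It had 32.2 ± 9.06 CPM in sham-vehicle (n = 10), 31.2 ± 6.97 in CKD-vehicle (n = 6), 42.3 ± 9.64 in sham-Oxf (n = 5) and 35.1 ± 9.30 in CKD-Oxf (n = 7), with overlap between all groups, and it was called in no group comparison. Aldh1l1, which encodes a folate dehydrogenase and ends 4.5 kb from Slc41a3, had a log2 difference of 0.52 ± 0.15 for the average with the bacterium (edgeR adjusted p 0.0515), opposite in sign to that of Slc41a3.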
